A study of Rattus norvegicus with 4 samples.

Results

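Dusp1, Dusp4, Dusp5 and Dusp6 encode dual specificity phosphatases that switch off mitogen-activated protein kinases (MAPKs). They were chosen by name, with earlier results of these data known, as 4 genes of this family whose probes carry a RefSeq accession. In this way 8963 genes were named on the array. Each has 1 probe with 1 spot per array, matched to NM_053769 (Dusp1), NM_022199 (Dusp4), NM_133578 (Dusp5) and NM_053883 (Dusp6). The RNA came from NRK-52E, an established line of rat kidney tubular epithelial cells, grown to confluence. The control culture went through the same steps without hydrogen peroxide (H2O2), and the others were exposed for 1 h to 0.003, 0.006 or 0.009% H2O2 in medium. After a wash, all 4 cultures stood for 12 h in medium without serum, so the control was serum-deprived too. Each dose was measured on 1 single-colour (Cy3) Agilent array, so there were no replicates and a value describes a single culture. The purpose stated for the series is to find the signals by which dying cells make their neighbours divide.

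MAPKs are active when a threonine and a tyrosine of their activation loop both carry phosphate, and these phosphatases remove both. Their genes are in turn switched on by MAPK signalling, which makes them negative feedback regulators, and most are transcribed within minutes of a growth factor or a stress. Dusp1 and Dusp4 encode nuclear enzymes that act on ERK, JNK and p38. Dusp5 encodes a nuclear and Dusp6 a cytoplasmic enzyme, both with a preference for ERK, the kinase of growth factor signalling. The catalytic cysteine of these enzymes can be oxidised by peroxide, which the RNA measured here does not show.

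The promoter sequences of 3 members are printed because these 3 were well above background on all 4 arrays and had more signal after every dose. They are the 250 bases before the annotated gene start, 5′ to 3′, from RefSeq on the GRCr8 assembly. Dusp1 lies on the plus strand at chr10:17184603-17184852, Dusp5 on the plus strand at chr1:262543524-262543773 and Dusp6 on the plus strand at chr7:35979354-35979603. Capitals mark matches to any of 6 motifs searched on both strands. These were the cAMP response element TGACGTCA, its core TGACG, the AP-1 site TGANTCA, the CArG box bound by serum response factor, the heat shock motif GAANNTTC and the ETS motif CCGGAAG.
Dusp1: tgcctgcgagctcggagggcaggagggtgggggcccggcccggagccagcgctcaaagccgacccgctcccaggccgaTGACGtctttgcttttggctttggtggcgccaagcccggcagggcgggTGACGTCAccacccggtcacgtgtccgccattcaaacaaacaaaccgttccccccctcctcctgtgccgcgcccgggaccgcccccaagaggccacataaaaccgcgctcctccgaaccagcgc
Dusp5: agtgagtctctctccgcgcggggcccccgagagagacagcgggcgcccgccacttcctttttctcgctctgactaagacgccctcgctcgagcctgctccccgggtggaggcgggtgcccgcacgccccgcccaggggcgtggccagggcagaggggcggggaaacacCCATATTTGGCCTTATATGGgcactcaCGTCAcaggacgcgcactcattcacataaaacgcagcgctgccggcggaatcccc
Dusp6: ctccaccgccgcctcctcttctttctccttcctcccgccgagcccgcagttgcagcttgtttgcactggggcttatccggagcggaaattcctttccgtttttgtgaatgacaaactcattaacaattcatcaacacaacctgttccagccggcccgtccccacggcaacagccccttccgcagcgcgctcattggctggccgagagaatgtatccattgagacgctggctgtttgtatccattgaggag
In Dusp1 the longer capital stretch is a full cAMP response element, 124 to 117 bases before the start, which contains the core on both strands. A separate core stands 172 to 168 bases before the start. Of 33469 rat promoters of this length, 1.59% hold the full element and 18.2% the core. In Dusp5 the capitals are 2 CArG boxes side by side, from 82 to 63 bases before the start, and a core on the minus strand at 55 to 51. At least 1 CArG box was found in 1.50% of promoters and at least 2 in 0.0209%. None of the 6 motifs was found in the Dusp6 window, so its sequence has no capitals. The AP-1, heat shock and ETS motifs, absent from these 3 windows, occurred in 6.34, 7.23 and 7.27% of promoters. A match describes letters and not a bound factor. The promoter of Dusp4 is not printed.

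Each array held 43379 noncontrol spots, of which none was saturated, and the share of probes well above background lay between 51.8 and 54.9%. The signal at the 75th percentile of an array, to which values are scaled, lay between 121 and 180 and was lowest at 0.009%. The 4 arrays lay on 1 slide in the order of the dose, so position and dose cannot be told apart. Of 15 tubular epithelial markers with a named probe, 8 to 10 were well above background, and Epcam, Pax8 and Slc9a3 were not on any array. The 15 summed to 63.5 times the 75th percentile signal in the control and to 59.4, 47.0 and 41.2 over the doses. A sum weighs bright genes most, and the keratin gene Krt8 and the water channel gene Aqp1 were the brightest in the control. The median log2 difference of the markers compared, bounds included, was 0.26, 0.40 and 0.39. The last was 0 with normexp and negative with array median scaling, and the last pair was negative with spike-in scaling. At least 2-fold higher were 2, 3 and 3 of these markers, and 2 were lower at each dose, bounds included. The markers of fibroblasts summed to 32.1 times the 75th percentile signal in the control and to 9.25, 13.3 and 19.7 over the doses, with Col3a1 and Pdgfrb the brightest of 3 of 6 genes above background, and Dcn, Lum and Thy1 below it on all arrays. Those of macrophages summed to 42.2 and then to between 22.6 and 27.3, with 3 or 4 of 7 above background, Cd14 and Cd68 the brightest and Itgam on none, and those of endothelium to between 0.172 and 0.440, with 1 of 4, Kdr, above background. The part of other cell types in the results was not tested.

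**Figure D1:**
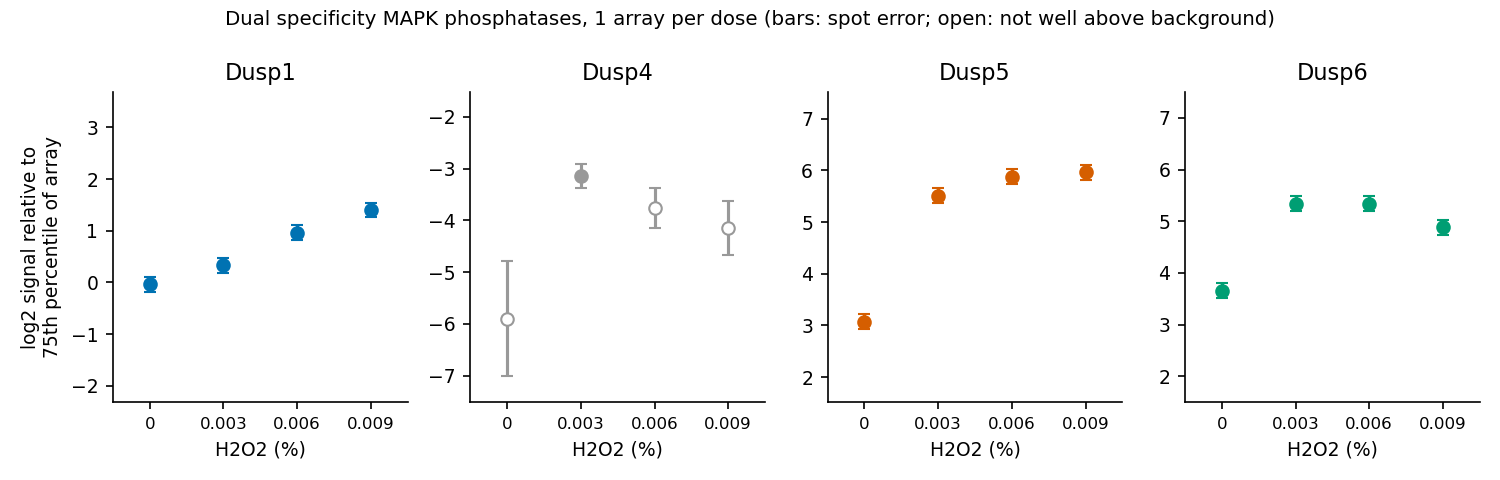
Levels of Dusp1, Dusp4, Dusp5 and Dusp6 at each H2O2 dose (x axis, %), as log2 signal relative to the 75th percentile of the array (y axis). Each point is 1 array, bars are the spot error, and open points were not well above background. Dusp5 is near 3.07 in the control and between 5.51 and 5.96 after H2O2, and Dusp4 has 1 filled point.

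Dusp5 differed most from the control. Its spot signal was 1513 in the control and 7631, 9308 and 7544 at 0.003, 0.006 and 0.009%. Relative to the 75th percentile, the log2 level was 3.07 ± 0.14 in the control (spot error, the scanner software's estimate for that spot) and 5.51, 5.88 and 5.96 with the same error at the 3 doses. All 3 treated cultures were far above the control and close to each other.

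The log2 difference of Dusp5 from the control was 2.44, 2.81 and 2.89, each ± 0.20 by spot error. This is 5.43-fold, 7.01-fold and 7.41-fold. In RNA from a whole culture, here and for the other genes, a change in the mix of cells and a change of RNA per cell cannot be told apart. Of the features compared (genes, or transcripts without a gene name), 1.47, 0.996 and 1.06% lay above Dusp5 at the 3 doses. Neighbouring doses were less than 2 spot errors apart, and 0.009% was above 0.003% by 0.45 ± 0.20. That order depended on the scaling. Scaled to the spike-in controls, the differences were 2.27, 2.27 and 1.69, so the highest dose had the lowest of the treated levels.

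Dusp6 was also higher in every treated culture, with less at the highest dose. Its signal was 2271 in the control and 6798, 6389 and 3581 over the doses. On the log2 scale its level was 3.65 in the control and 5.34, 5.34 and 4.88 after H2O2, each ± 0.14. The differences from the control were 1.69, 1.68 and 1.23, each ± 0.20, or 3.22-fold, 3.21-fold and 2.34-fold. Levels at 0.003 and 0.006% differed by -0.01 ± 0.20, and 0.009% lay below 0.006% by a log2 difference of -0.45 ± 0.20. With spike-in scaling the difference at 0.009% was 0.030, close to the control, while those at 0.003 and 0.006% were 1.51 and 1.14. The lower level at 0.009% than at 0.003% was present under each of the 6 alternatives tried.

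Dusp1, the family member best known as an immediate early stress gene, had a graded difference, smaller than that of Dusp6 at 0.003 and 0.006% and larger at 0.009%. Its signal was 176 in the control and 211, 309 and 320 at the 3 doses. The log2 level was -0.036 ± 0.15 in the control and 0.33, 0.97 and 1.40 over the doses. The differences from the control were 0.37, 1.00 and 1.44, each ± 0.21, or 1.29-fold, 2.003-fold and 2.71-fold. The value at 0.003% was under 2 spot errors from the control, and 35.0% of the features compared lay above it. Steps from 0.003 to 0.006% (0.63 ± 0.21) and from 0.006 to 0.009% (0.44 ± 0.20) were larger than that. The order of the doses was the same under array median scaling, normexp background correction and quantile normalization. With spike-in scaling it was not, the differences being 0.20, 0.46 and 0.24.

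Dusp4 was dim. Its signal was 3.02 in the control and 19.1, 11.7 and 6.82 over the doses, and it was well above background at 0.003% only. The lowest signal well above background on the control array was 10.2. With the control set to that value, Dusp4 was at least 2.002-fold higher at 0.003%, a log2 bound of 1.00. The bound was 0.77 with quantile normalization, 0.83 with spike-in scaling, 0.85 with array median scaling and 0.32 with normexp. At 0.006 and 0.009% neither array was above background and no difference is given.

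In all, 3 of 4 members compared at 0.003% were at least 2-fold higher than the control, where 14.9% of 20895 features were, bounds included in both. Dusp4 counted here by its bound, and was compared only because it was above background at this dose and not in the control. That filter fixed its direction in advance, so Dusp4 adds no support to the count. At 0.006% it was 3 of 3 against 14.9% of 20677, and at 0.009% 3 of 3 against 16.5% of 21459. The members were chosen with earlier results of these data known, so these counts are a description. At least 2-fold lower were 13.6, 10.5 and 7.4% of features, and none of Dusp1, Dusp5 and Dusp6 was lower at any dose. Every difference of Dusp1, Dusp5 and Dusp6 stayed above 0 under the 6 alternatives, but the number of members past 2-fold did not hold. The bound of Dusp4 could not fall below 0 by the way bounds are set. With array median or spike-in scaling it was 2, 2 and 1, the last being Dusp5, with quantile normalization 2, 3 and 3, and with normexp 2, 2 and 3. The 2-fold limit sorts by size alone. Dusp4 at 0.003% and Dusp1 at 0.006% stood just inside it.

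**Figure D2:**
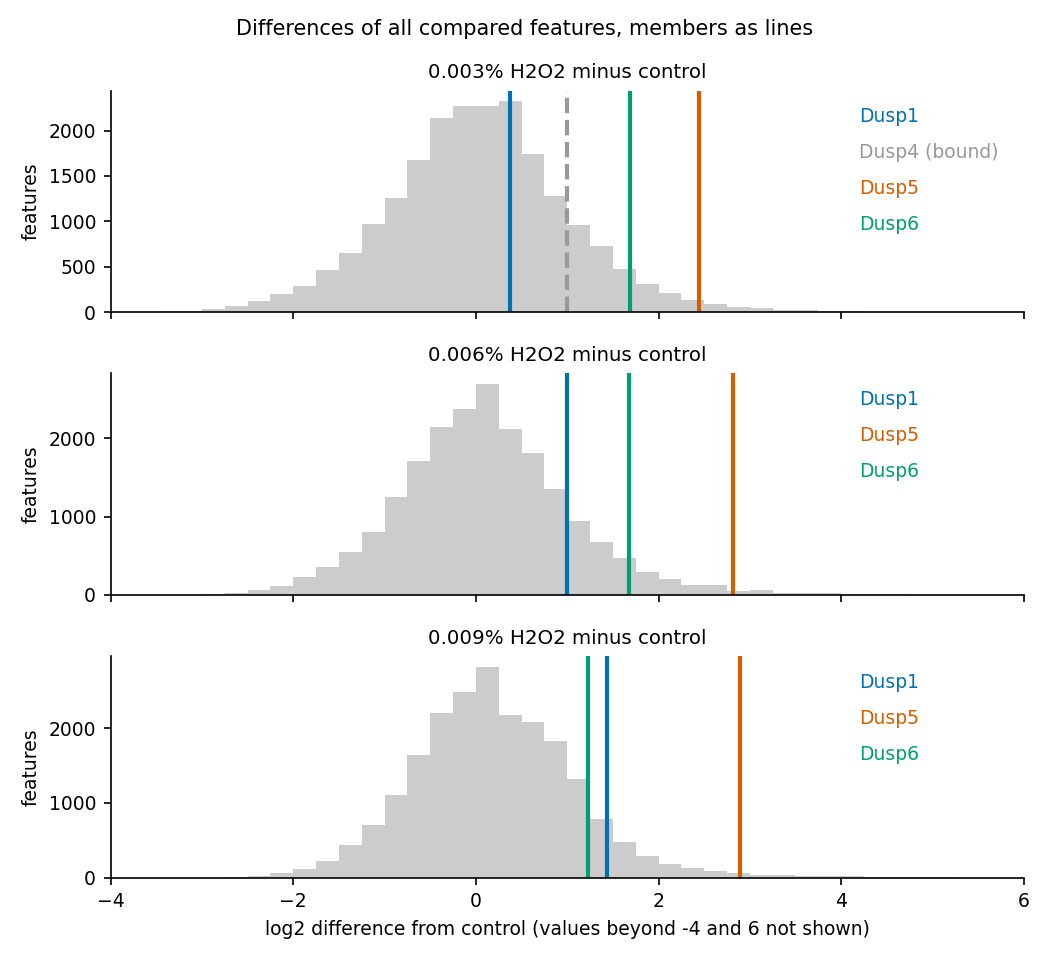
Number of features (y axis) by log2 difference from the control (x axis) at each of the 3 doses, as grey bars, with a line for each member compared and a dashed line for the bound of Dusp4. Dusp5 is in the right tail at every dose, while Dusp1 moves from 0.37 to 1.44.

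A straight line over dose was fitted to 22352 features with limma on the 4 arrays, with 2 residual degrees of freedom. With 1 array per dose, the error of this fit is the departure from a straight line. It holds no measure of the spread between cultures, and neither do the p-values. No feature passed a Benjamini-Hochberg adjusted p of 0.05, and 3468 (15.5%) had an unadjusted p below 0.05. The log2 slope per step of 0.003% was 0.90 for Dusp5 (limma adjusted p = 0.299), 0.49 for Dusp1 (0.299) and 0.37 for Dusp6 (0.521). No slope is given for Dusp4, which was above background on 1 of the 4 arrays. The slope of Dusp5 had 1.14% of features above it. That of Dusp1 had 6.21% above it. With spike-in scaling the slopes of Dusp5, Dusp1 and Dusp6 were 0.51, 0.10 and -0.03, and with array median scaling those of Dusp1 and Dusp6 were 0.31 and 0.18. The count of 0 features did not hold when an array was left out, which leaves 1 residual degree of freedom. With limma, 7735 features passed an adjusted p of 0.05 without the control array, 356 without that at 0.003%, 131 without that at 0.006% and 936 without that at 0.009%. Without the control array the slope of Dusp5 was 0.22, that of Dusp6 was -0.23 and that of Dusp1 was 0.53. Without the array at 0.009% they were 1.41, 0.84 and 0.50. The slope of Dusp5 was 1.03 without the array at 0.003% and 0.86 without that at 0.006%. 

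The genes most like each member were sought among 4984 named genes well above background on all 4 arrays, by the Euclidean distance between their 3 log2 differences from the control. Nearest to Dusp1 were Azi2, an adaptor of innate immune kinases, at a distance of 0.08, Zc3h12a, an RNase that degrades cytokine transcripts, at 0.13, and the amino acid transporter gene Slc7a3 at 0.14. Azi2 had differences of 0.41, 1.00 and 1.51. Nearest to Dusp6 were Lyar, which encodes a nucleolar protein, Eng, which encodes the TGF-beta co-receptor endoglin, and the deubiquitinase gene Usp10, each at 0.11. Nearest to Dusp5 were Atf4, the transcription factor of the integrated stress response, at 0.28, the keratin gene Krt18 at 0.31 and the carotene-cleaving enzyme gene Bco1 at 0.37. Atf4 was at 2.48, 2.69 and 2.64. The comparison rests on 3 differences that share 1 control array, and describes the shape of a response and no more.

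The other dual specificity phosphatases and relatives measured did not share one direction. Those lower were all from the atypical list, and among other classical MAPK phosphatases only Dusp9 could be compared. Of 6 other classical MAPK phosphatases listed, 2 had a named probe. Dusp2 was not above background on any array. Dusp9, an ERK-preferring enzyme, had signals of 9.35, 9.37, 11.6 and 18.8 from the control to 0.009% and was above background at the last dose only, where it was at least 2.73-fold higher (bound 1.45, and 0.25 with spike-in scaling). As with Dusp4, the background filter fixed the direction of Dusp9 in advance.

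Of 22 atypical dual specificity phosphatases and relatives listed, 8 had a named probe and 7 were compared at each dose. At least 2-fold higher were 2, 1 and 1 of them, where 14.9, 14.9 and 16.5% of all features were. At least 2-fold lower were 1, 1 and 2, where 13.6, 10.5 and 7.4% of all features were. Their median difference was 0.05, -0.60 and -0.09, the first of which was below 0 under array median and under spike-in scaling, beside medians over all features of 0.03, 0.01 and 0.13. Dusp13b had signals of 54.9 in the control and 243, 181 and 76.8 over the doses. Its differences of 2.25, 1.91 and 1.06 were smaller at the higher doses, and the last was -0.14 with spike-in scaling. Dusp11, which removes phosphates from RNA, was at 1.03, 0.83 and 0.36, the last turning negative with array median and spike-in scaling.

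Dusp14, which encodes a small phosphatase that acts on MAPKs, was lower at the upper doses. Its signals were 379 in the control and 364, 202 and 104 over the doses. The differences were 0.05, -0.71 and -1.29, the first turning negative with array median and spike-in scaling. Dusp18 was at -0.78, -1.25 and -1.26 by its brighter probe, but at 0.08, -0.35 and -0.17 by its other one, so its probes disagree. Styxl1, a relative without catalytic activity, was at -1.04, -0.60 and -0.03, the last turning positive with quantile normalization. Ssh3, a slingshot phosphatase, was at -0.85, -0.74 and -0.39. Dusp12 was at 0.49, 0.04 and -0.09. The middle value turned negative with array median, quantile and spike-in scaling, and the last turned positive with normexp, while spike-in scaling put it at -1.29 and array median scaling at -0.65. Dusp26 was not above background on any array.

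**Figure D3:**
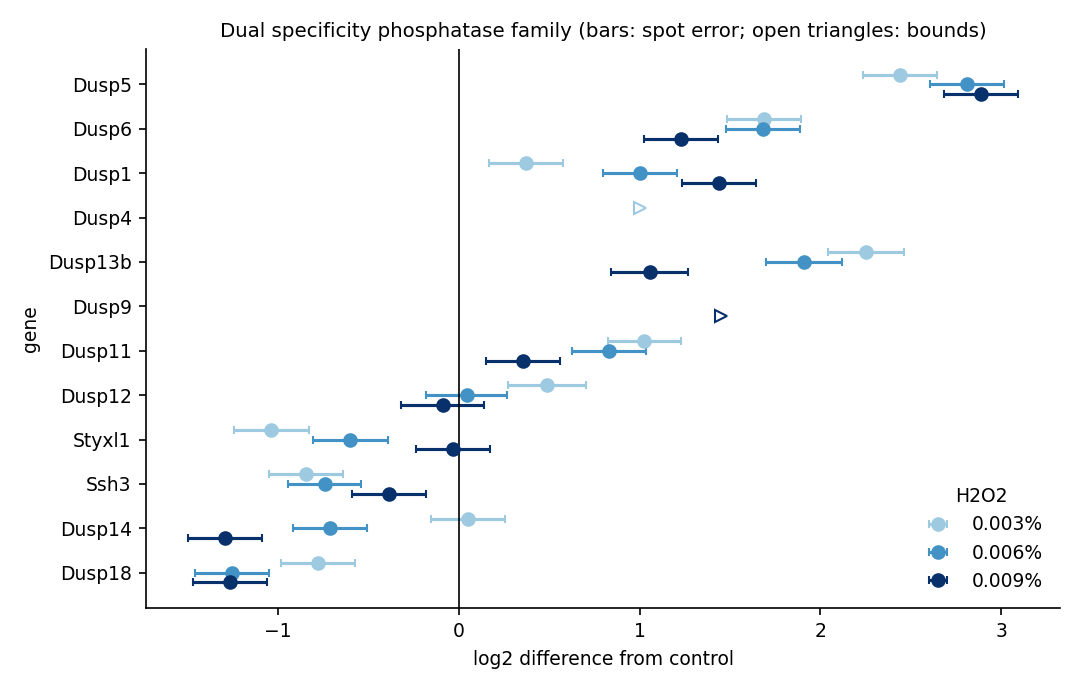
Log2 difference from the control (x axis) for the dual specificity phosphatase genes measured (y axis), with 1 point per dose, bars for the spot error and open triangles for bounds. Dusp5, Dusp6 and Dusp1 lie right of 0 at every dose, and Dusp18 and Ssh3 lie left of it.

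Of 13 measured genes of the ERK cascade, 1, 1 and 0 were at least 2-fold higher and 2, 0 and 1 at least 2-fold lower. The medians were 0.14, -0.18 and -0.27, the first negative with array median and spike-in scaling. For this and the lists that follow, the shares over all features were 14.9, 14.9 and 16.5% higher and 13.6, 10.5 and 7.4% lower. The ERK1 gene Mapk3 was lower, at -1.22, -0.91 and -0.64. Lower too were the RAF kinase gene Araf, at -1.05, -0.71 and -0.45, and the adaptor gene Shc1, at -0.71, -0.76 and -1.15.

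Of 12 measured genes of the JNK and p38 cascades, 4, 3 and 3 were at least 2-fold higher and 1, 1 and 0 lower. The medians were -0.08, -0.29 and -0.09, the last 0.08 with normexp. Those higher included the 3 stress-induced GADD45 genes, whose proteins bind and activate the p38 and JNK kinase MEKK4. Gadd45a was at 2.78, 3.16 and 2.95, Gadd45b at 1.78, 1.87 and 1.91, and Gadd45g at 1.62, 1.87 and 2.04. The other gene higher at 0.003% was Map2k4, which encodes a JNK-activating kinase and was picked out after its values were seen. It was at 1.26, 0.87 and 0.06, the last turning negative with array median and spike-in scaling. Map2k6, which encodes a p38-activating kinase, had bounds of -2.22 and -1.78, below the control, and was measured at -0.48 at 0.009%, where normexp gave the opposite sign. With normexp the bounds were -0.57 and -0.49, under 2-fold. Their direction was fixed in advance, since Map2k6 exceeded background in the control and not at these doses. Among kinases activated by MAPKs, 3 were measured and none was 2-fold from the control. Mapkapk5 was at 0.92, 0.85 and 0.31, Rps6ka1 at -0.63, -0.80 and -0.23, and Mapkapk2 at 0.25, 0.26 and 0.02, the last of Mapkapk5 and the last pair of Mapkapk2 turning negative after array median or spike-in scaling, and the last of Mapkapk2 after quantile normalization and normexp too.

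Other inhibitors of the pathway were mixed. Of 8 feedback inhibitors measured, 3 were at least 2-fold higher at each dose and 1, 1 and 2 lower, with medians of 0.43, 0.53 and 0.42, the last negative with array median and the last pair with spike-in scaling. Errfi1, an inhibitor of the EGF receptor, was at 1.79, 2.23 and 2.38, and Spred1, which blocks RAF activation, at 2.14, 1.98 and 1.57. With normexp Spred1 was under 2-fold, at 0.85, 0.78 and 0.75, and with spike-in scaling it was 0.38 at 0.009%. Errfi1 stayed past 2-fold with both. Nf1, a RAS GTPase-activating protein, was higher by bounds of 1.21, 1.54 and 2.29, which were 0.42, 0.56 and 0.89 with normexp. Nf1 exceeded background after H2O2 and not in the control, which fixed its direction in advance, so it adds no support to the count. Dab2ip, of the same enzyme class, was at -1.17, -1.50 and -1.46, and so was Rasa1 lower, at -0.60, -0.90 and -1.19, picked out after its values were seen.

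Other phosphatases that act on MAPKs were past 2-fold upward in 3 of 8, 2 of 8 and 2 of 9 cases and downward in none. Their medians were 0.59, 0.51 and 0.21. The median at 0.006% was -0.03 with spike-in scaling, and that at 0.009% was -0.99 with it and -0.36 with array median scaling. Ppp2ca, the catalytic subunit of protein phosphatase 2A, was at 1.50, 1.29 and 0.69, and its regulatory subunit Ppp2r2a at 1.46, 1.31 and 1.01, the last of each negative with spike-in scaling. Ppm1a, a metal-dependent phosphatase, was at 1.30, 0.66 and -0.05, the last positive with normexp. Ptpn7 was compared at 0.009% only, higher by a bound of 1.05 that was lost with spike-in scaling. It exceeded background there and not in the control, so its direction was fixed in advance and it adds no support to the count.

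**Figure D4:**
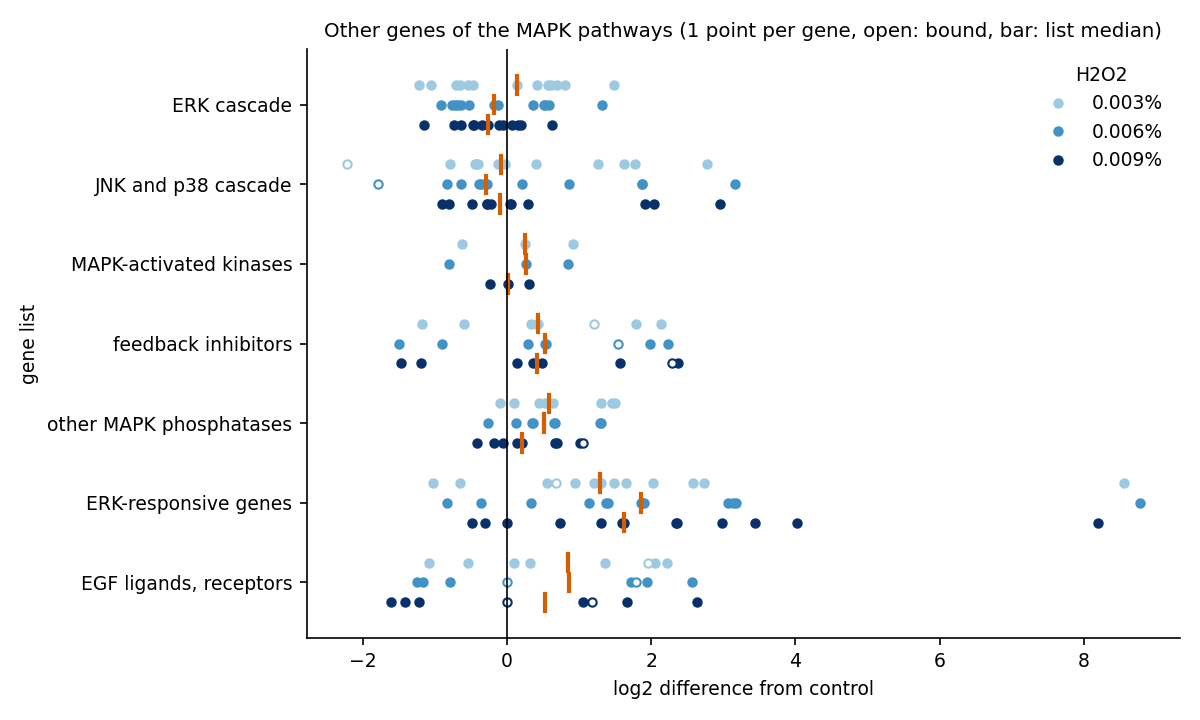
Log2 difference from the control (x axis) of the other measured genes of the MAPK pathways, by list (y axis) and dose. Each point is 1 gene, open points are bounds and orange bars are list medians. The medians of ERK-responsive genes lie at 1.29, 1.85 and 1.62, and those of the ERK cascade between -0.27 and 0.14.

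Of the genes that respond to ERK, 9 of 14, 10 of 13 and 9 of 13 were past 2-fold upward, with medians of 1.29, 1.85 and 1.62, which were 1.12, 1.31 and 0.42 with spike-in scaling. The list was chosen with results of these data known, so its direction is a description. Myc, a growth-promoting transcription factor, was at 2.73, 3.06 and 2.98, and the immediate early gene Ier2 at 2.57, 3.13 and 3.44. Egr1, a zinc finger transcription factor, was at 2.03, 3.17 and 4.03, and the AP-1 subunit gene Fosl1 was at 8.56, 8.78 and 8.19. The size for Fosl1 depended on the background correction, and was 6.46, 6.61 and 5.89 with normexp. Ccnd1, the cyclin D1 gene, was the only one 2-fold lower, at -1.03 at 0.003%, and was picked out after its values were seen.

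Genes of ligands and receptors upstream of ERK did not share one direction, also among the ligands. Of 8 measured genes of the EGF receptor family and its ligands, 4 were at least 2-fold higher at each dose and 1, 2 and 3 lower. The higher ones were the ligand genes Hbegf, at 2.06, 2.57 and 2.63, Areg, at 1.36, 1.72 and 1.66, Nrg1, at 2.22, 1.94 and 1.05, and Ereg, by bounds of 1.96, 1.79 and 1.17. The last value of Nrg1 turned negative and the last bound of Ereg was lost with spike-in scaling. With normexp the bounds of Ereg were 0.64, 0.57 and 0.64, under 2-fold. Ereg was compared only because it exceeded background after H2O2 and not in the control. That fixed its direction in advance, so Ereg adds no support to the count. The lower ones, picked out after their values were seen, were the receptor gene Egfr at -1.07, -1.24 and -1.22, the receptor gene Erbb2 at -1.16 and -1.61 at 0.006 and 0.009%, and the ligand gene Tgfa at -1.41 at 0.009%.

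**Figure D5:**
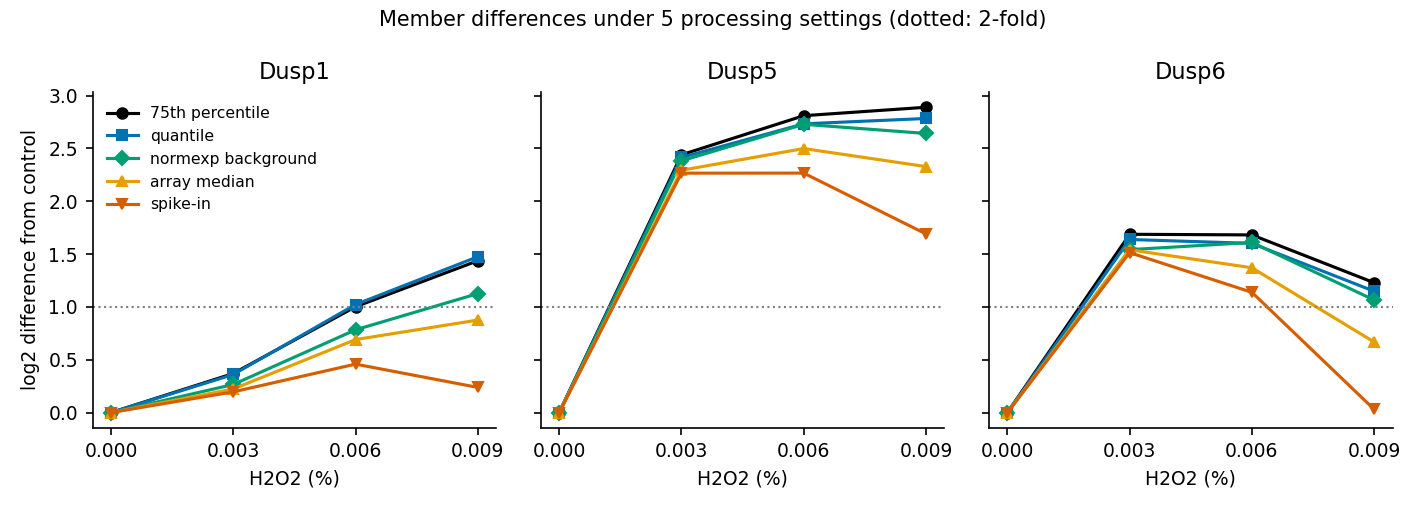
Log2 difference of Dusp1, Dusp5 and Dusp6 from the control (y axis) by H2O2 dose (x axis, %) under 5 processing settings, with the 2-fold limit dotted. All points after H2O2 are above 0, and the settings part most at 0.009%, where Dusp6 is at 1.23 with the 75th percentile and 0.030 with spike-in scaling.

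At 0.003%, over these settings, Dusp5 was between 2.27 and 2.44, Dusp6 between 1.51 and 1.69 and Dusp1 between 0.20 and 0.37. At 0.009%, the dose whose 75th percentile signal was lowest, Dusp5 was between 1.69 and 2.89, Dusp1 between 0.24 and 1.48 and Dusp6 between 0.030 and 1.23. Which of these scalings stands closest to the RNA content of the cells was not tested.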

How the data were processed

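Total RNA of 4 cultures was labelled with Cy3 and hybridised to Agilent arrays, 1 per dose. The authors read the arrays (design 014879) with Agilent Feature Extraction 10.7.3.1 under protocol GE1_107_Sep09. The intensity used is, per the file headers, a processed linear spot signal, background-subtracted and detrended but not scaled across arrays, with an error in the same unit. The authors' deposited table of values is a linear ratio. All of its entries (100%) equalled the mean spot signal over the array median, to within 1e-05 of the value. It served as an alternative.

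Spots marked as outliers were left out, log2 signals of a probe's spots averaged and reduced by the log2 75th percentile of the array. Of 41012 probes, 41007 were used. RefSeq accessions named 10835 probes (26.4%) and 8963 genes through RefSeq genes on GRCr8, used for names and for the promoter sequences, while the array design is older. A gene was represented by the brightest of its probes that exceeded background on 1 array or more. Where a side did not exceed background, the lowest signal on that array that did so replaced any smaller value, and the difference is a bound. Which side exceeded background fixes the direction of a bound, so a bound adds no support to a count of higher or lower genes. Other transcripts, 1 brightest probe for each accession, were kept unnamed.

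Errors are those the scanner software gives for spots, carried over to differences (median 0.21 in log2). They leave out the spread between cultures, and precision is limited by the number of arrays. Single doses have no p-value. The trend used limma 3.58.1 in R 4.3.3 and was tested on simulated data. Alternatives were array median, quantile and spike-in scaling, normexp (offset 50, on the median spot and background signals, since the mean signal was not used here), outlier spots kept, the deposited table, a stricter filter on dim features and, for the trend, each array left out in turn (added after seeing the data).

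The genes named are the members, the measured dual specificity phosphatases, the 4 genes of each pathway list with the largest mean difference in size, the 3 genes nearest to each member in pattern and the 2 brightest of each marker list in the control. The members and the lists were chosen with earlier results of these data known. Of 150 listed pathway genes, 88 had a named probe. Some genes that this rule picks are not reported here.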

Additional observations from a re-analysis of the deposited data

How the results depend on the processing

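All values of Dusp1, Dusp5 and Dusp6 kept their sign under the 6 alternatives, and keeping outlier spots left them and the bound of Dusp4 as they were. The bound of Dusp4 could not turn negative, since a bound whose sign is lost is set to 0. With spike-in scaling Dusp1, Dusp5 and Dusp6 were at 0.46, 2.27 and 1.14 at 0.006% and at 0.24, 1.69 and 0.030 at 0.009%. With array median scaling, and equally in the deposited value table, they were at 0.88, 2.33 and 0.67 at 0.009%. Features at least 2-fold higher and lower, 3103 and 2840 at 0.003%, were 1388 and 1303 with normexp. At 0.006%, instead of 3072 and 2165, they were 1955 and 3782 with array median scaling and in the deposited table, 1215 and 1048 with normexp, and 1347 and 5457 with spike-in scaling. At 0.009%, instead of 3536 and 1587, they were 1287 and 4843 with array median scaling, 1288 and 4843 in the deposited table, 906 and 762 with normexp, and 503 and 11101 with spike-in scaling. There 2107 were higher with quantile normalization and 2134 where both arrays had to exceed background. The higher made up 52.2, 58.7 and 69.02% of both, against 41.2, 34.1 and 21.0% with array median scaling, 39.5, 19.8 and 4.33% with spike-in scaling, and 47.2 and 54.3% at 0.009% with quantile normalization and normexp. Of 73, 72 and 74 pathway genes compared, 26, 24 and 23 were higher and 7, 5 and 8 lower over the doses. Over all features, 14.9, 14.9 and 16.5% were higher and 13.6, 10.5 and 7.4% lower. The lower were 2 with normexp at 0.003%, 15 with array median scaling and in the deposited table and 20 with spike-in scaling at 0.006%, and 16, 16, 40 and 5 at 0.009% with array median scaling, the deposited table, spike-in scaling and normexp. The higher at 0.009% were 10 with spike-in scaling and 15 with normexp. The median of all features at 0.009% was -0.40 under array median scaling and -1.04 under spike-in scaling, so these scalings shift all features together, and the cause of the other changes was not tested. The trend called 0 features at an adjusted p of 0.05 with limma under each scaling, background, spot and filter alternative, but between 131 and 7735 when each array was left out in turn, an alternative chosen after seeing the data. At an unadjusted p under 0.05 it called 3468, against 8775 with spike-in scaling, 1958 with features well above background on all arrays and between 997 and 10953 with an array left out. Averaging over probes was not run for the members, since each has 1 probe. No paired analysis was possible because each dose had 1 array. Dim signal limits Dusp4, which was above background on 1 array.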
